A study of Rattus norvegicus with 2 samples.

Results

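A set of 9 genes of bone morphogenetic protein (BMP) signalling was followed across the cell classes of fetal rat colon: the ligands Bmp2, Bmp4, Bmp5 and Bmp7, the secreted antagonists Grem1, Nog and Chrd, and the target genes Id1 and Id3. They were taken by symbol from the gene column of the deposited tables, where each of the 9 symbols stood for 1 identifier among 28116 symbols in all. The study compared single-cell RNA libraries of wild-type fetuses at stage E19.5, 1 library from the colon of the control group and 1 from the colon of the group labelled maternal obesity. The labels do not say how many fetuses or litters went into a library, nor how obesity was brought about. With 1 library per group no test between the groups was possible, so every difference below is a difference between 2 libraries.

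A UMI (unique molecular identifier) marks 1 captured RNA molecule, and levels are given as CPM, the UMIs of a gene per 1000000 UMIs of its cell class. The control library held 8903 barcodes with a median of 8599 UMIs, and the maternal obesity library 9714 barcodes with a median of 9142. After a minimum of 500 genes, a ceiling of 20% on mitochondrial UMIs and the removal of called doublets, the kept cells numbered 6830 and 7083, and 78 of the kept barcode sequences occurred in both libraries. Haemoglobin took 3.48% of the UMIs of kept control cells and 9.96% of those of maternal obesity cells. Cells were grouped into 36 clusters without the 9 genes and without other BMP genes, so that their levels placed no cell. Clusters were named from marker lists, and a name reads "X-like" because it rests on markers alone. The 13 classes that reached 30 cells in both libraries were used, while 913 control and 1252 maternal obesity cells stayed unnamed. All intervals are at 95% and cover counting error only, not the spread between animals.

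Of the classes described most here, subepithelial fibroblast-like cells numbered 87 in the control and 364 in the maternal obesity library, fibroblast-like cells 415 and 1123, smooth muscle-like cells 843 and 626, interstitial cell of Cajal-like (ICC-like) cells 254 and 247, enteric neuron-like cells 379 and 485, enteric glia-like cells 457 and 456, and epithelial-like cells 2666 and 1331. The summed level of the 11 subepithelial fibroblast markers in the class of that name was 1702 CPM in the control and 2761 CPM in the maternal obesity library. It was 1112 and 646 CPM in mesothelium-like, 1055 and 1067 CPM in ICC-like and 839 and 832 CPM in smooth muscle-like cells. In subepithelial fibroblast-like cells the general fibroblast list stood higher than the subepithelial list. Nrg1 and Tgfbi of the subepithelial list were among the leading genes of these cells. In ICC-like cells, where Kit and Etv1 were among the leading genes, the smooth muscle list likewise stood above the list of the class.

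BMPs are secreted dimers that bind pairs of type I and type II serine/threonine kinase receptors, which phosphorylate SMAD1, SMAD5 and SMAD9. These move to the nucleus with SMAD4 and switch on target genes such as the Id family. Gremlin 1, noggin and chordin bind the ligands outside the cell and keep them from their receptors. In the gut, BMP ligands made around the epithelium are known to restrain stem cell renewal, and antagonists made near the crypt base and in the muscle layer counter them.

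The sequences just upstream of the start sites are shown for the pairs of genes that shared a leading class, and for the pair of target genes. They come from RefSeq on build GRCr8, which held 7 of the 9 symbols (all but Bmp2 and Bmp7), and the build behind the deposited counts is named by no source used here. Each is the 250 bases before the annotated start, 5′ to 3′ on the gene's strand. Capitals mark matches on either strand to GGCGCC (BMP SMAD motif), CAGAC (general SMAD motif), TGGGTGG (core of the GLI motif) or GTAAACA (forkhead motif). The CArG box of serum response factor was searched as well. Bmp4 (chr15:22101934-22102183, minus strand) and Bmp5 (chr8:85397379-85397628, plus strand) were both highest in subepithelial fibroblast-like cells.
Bmp4: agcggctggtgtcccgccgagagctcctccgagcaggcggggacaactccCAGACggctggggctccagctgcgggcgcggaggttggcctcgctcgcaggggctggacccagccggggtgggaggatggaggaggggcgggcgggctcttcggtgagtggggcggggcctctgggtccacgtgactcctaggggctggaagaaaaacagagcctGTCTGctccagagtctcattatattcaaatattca
Bmp5: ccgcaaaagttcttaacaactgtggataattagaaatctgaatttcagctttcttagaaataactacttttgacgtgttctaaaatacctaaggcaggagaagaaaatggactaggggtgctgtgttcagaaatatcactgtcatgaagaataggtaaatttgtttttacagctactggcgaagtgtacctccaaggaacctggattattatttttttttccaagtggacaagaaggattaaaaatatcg
Grem1 (chr3:120978320-120978569, minus strand) and Nog (chr10:74627502-74627751, minus strand) were both highest in smooth muscle-like cells.
Grem1: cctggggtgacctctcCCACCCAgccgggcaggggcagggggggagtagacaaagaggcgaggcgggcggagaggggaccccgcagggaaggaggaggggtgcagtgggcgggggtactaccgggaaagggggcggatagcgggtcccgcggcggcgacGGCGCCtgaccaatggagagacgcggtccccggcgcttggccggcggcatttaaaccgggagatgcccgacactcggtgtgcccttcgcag
Nog: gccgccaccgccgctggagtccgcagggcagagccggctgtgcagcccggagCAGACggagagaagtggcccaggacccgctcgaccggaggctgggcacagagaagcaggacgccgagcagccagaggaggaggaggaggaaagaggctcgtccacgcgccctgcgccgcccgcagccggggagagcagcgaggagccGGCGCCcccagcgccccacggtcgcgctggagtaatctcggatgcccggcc
Id1 (chr3:161671314-161671563, plus strand) and Id3 (chr5:153656041-153656290, plus strand) are the target genes.
Id1: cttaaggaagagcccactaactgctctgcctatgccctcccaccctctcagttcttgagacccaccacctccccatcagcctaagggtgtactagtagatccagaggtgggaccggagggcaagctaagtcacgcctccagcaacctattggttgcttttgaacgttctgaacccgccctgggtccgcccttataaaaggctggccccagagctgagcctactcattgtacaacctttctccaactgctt
Id3: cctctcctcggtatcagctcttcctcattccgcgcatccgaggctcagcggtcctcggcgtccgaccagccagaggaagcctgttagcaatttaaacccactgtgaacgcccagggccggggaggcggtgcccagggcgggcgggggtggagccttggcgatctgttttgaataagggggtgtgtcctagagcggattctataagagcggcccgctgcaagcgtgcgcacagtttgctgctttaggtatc

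In these windows Bmp4 held CAGAC 2 times, 200 and 35 bases before the start. Grem1 held GGCGCC 91 bases and TGGGTGG 234 bases before the start, Nog held GGCGCC 51 bases and CAGAC 198 bases before it, and no 2 matches overlapped. Chrd, whose window is not printed, held GGCGCC 203 bases before its start. No motif of the 5 matched in the windows of Bmp5, Id1 or Id3, which says only that these letters are not in these windows. Among 33469 RefSeq windows of the same length, GGCGCC occurred in 8.69%, CAGAC in 42.9%, TGGGTGG in 7.93%, GTAAACA in 3.21% and the CArG box in 1.5%. The G and C content was 72.0% in Grem1 and 74.0% in Nog, against 35.2% in Bmp5 and a median of 51.2% over all windows.

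Bmp4, the main mesenchymal BMP of the gut, was a gene of the subepithelial fibroblast-like cells in both libraries. Its level there was 620 CPM (324 UMIs; interval 555 to 692) in the control library and 746 CPM (2039 UMIs; 713 to 779) in the maternal obesity library, a ratio of 1.2 (1.07 to 1.36). Mesothelium-like cells followed at 138 and 192 CPM, and fibroblast-like cells at 91.5 and 124 CPM. The intervals of these 3 classes stood apart from each other in both libraries, so the order was the same in each. Bmp4 was found in enteric glia-like cells with 1 and 2 UMIs and in erythroid-like cells with 0 and 1 UMI, close to nothing.

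**Figure D1:**
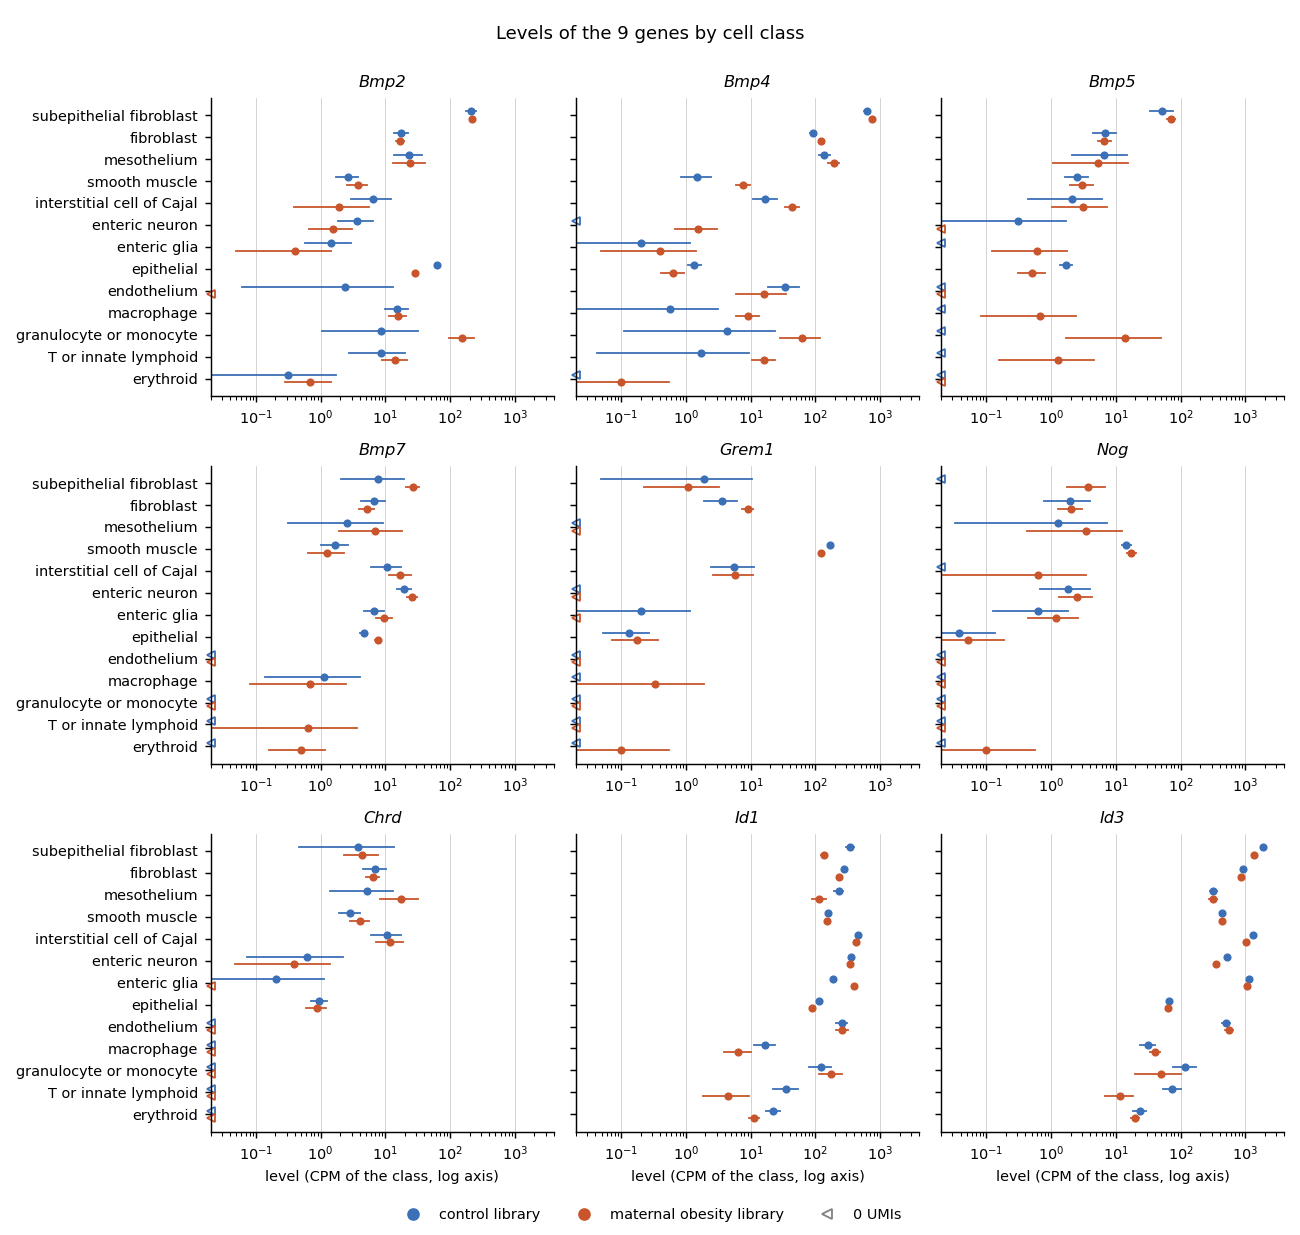
Level of each gene in 13 cell classes (rows), in CPM of the class on a log axis; points are the control and maternal obesity libraries, bars are 95% Poisson intervals, and open triangles at the left edge mark 0 UMIs. Bmp4 sits near 620 and 746 CPM in subepithelial fibroblast-like cells, Grem1 at 167 and 122 CPM in smooth muscle-like cells, and Id1 and Id3 are spread over most non-blood classes.

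The share of cells with a Bmp4 UMI gave the same picture once every cell was thinned to 3000 UMIs. It was 72.4% of 76 subepithelial fibroblast-like cells in the control and 73.0% of 348 in the maternal obesity library. It was 16.8% and 25.5% in fibroblast-like cells, while 0 of 190 and 0 of 495 erythroid-like cells had one. Haemoglobin took 80.1% and 86.3% of the UMIs of erythroid-like cells, so few of the 3000 were left there for other genes. Thinning left out 11 and 16 shallower subepithelial fibroblast-like cells, and without it their shares were 82.8% and 87.4%. Over all kept cells, however, Bmp4 stood at 10.9 CPM in the control and 40.0 CPM in the maternal obesity library, a ratio of 3.68 (3.43 to 3.95), far from the 1.2 within its leading class. Subepithelial fibroblast-like cells made up 1.27% of the kept cells in the control and 5.14% in the other library, and fibroblast-like cells 6.08% and 15.9%. Whether these shares come from the tissue or from its dissociation cannot be told apart.

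Bmp4 also differed in classes where it was low. In ICC-like cells it was 16.9 CPM (24 UMIs) in the control and 44.2 CPM (70 UMIs) in the maternal obesity library, a ratio of 2.62 (1.62 to 4.35). The fibroblast markers of these cells summed to 2811 and 3324 CPM and the subepithelial markers to 1055 and 1067 CPM. The erythroid markers summed to 256 CPM in the control and 7158 CPM in the maternal obesity library in the same ICC-like cells, and the epithelial markers to 960 and 468 CPM; the part of these lists in the result was not tested. In smooth muscle-like cells Bmp4 was 1.498 CPM (16 UMIs) and 7.66 CPM (66 UMIs), a ratio of 5.11 (2.93 to 9.46). This rested on few cells: 13 control and 23 maternal obesity cells held the UMIs, and after thinning 0.870% and 1.15% of cells had one. T or innate lymphoid-like cells, which are not known to make Bmp4, had one in 0 of 77 and in 3.53% of 170 cells, with median depths of 6509 and 7862 UMIs against 10567 and 11643 in smooth muscle-like cells. Shares were lower than in the smooth muscle in enteric glia-like cells, with 1 of 441 in each library. They were also lower in erythroid-like cells, with 0 of 190 and 0 of 495. Macrophage-like cells had a Bmp4 UMI in 1 of 171 control and 3 of 245 maternal obesity cells. In the maternal obesity library this was no lower than in the smooth muscle. Before thinning, 1 T or innate lymphoid-like cell of the maternal obesity library held 15 of the 25 Bmp4 UMIs of its class. How much of the smooth muscle Bmp4 is free RNA was not tested. By cluster the ratio was 17.1 (6.20 to 65.8) in the cluster led by Actg2, 3.58 (1.22 to 12.7) in the one led by Cnn1 and 0.759 (0.269 to 2.31) in the one led by Egr4. These ratios divide the same few UMIs further. Of the 66 maternal obesity UMIs of the class, up to 10 lay in 1 cell, which the intervals do not take into account.

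Bmp2, a close relative of Bmp4, was found in mesenchyme and epithelium. As a level it was highest in subepithelial fibroblast-like cells, at 211 CPM (110 UMIs; 173 to 254) in the control and 217 CPM (593 UMIs; 200 to 235) in the maternal obesity library, a ratio of 1.03 (0.838 to 1.27). By number of molecules most Bmp2 was epithelial in the control library. Epithelial-like cells held 87.3% of all Bmp2 UMIs there and 52.0% (interval 49.8% to 54.1%) in the maternal obesity library. The same cells held 58.0% and 38.8% of the UMIs of all genes. Fibroblast-like cells were at 17.6 and 17.0 CPM, and mesothelium-like cells at 23.2 and 24.4 CPM. A high value in granulocyte or monocyte-like cells of the maternal obesity library, 154 CPM, came from 1 cell that held all 22 UMIs.

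**Figure D2:**
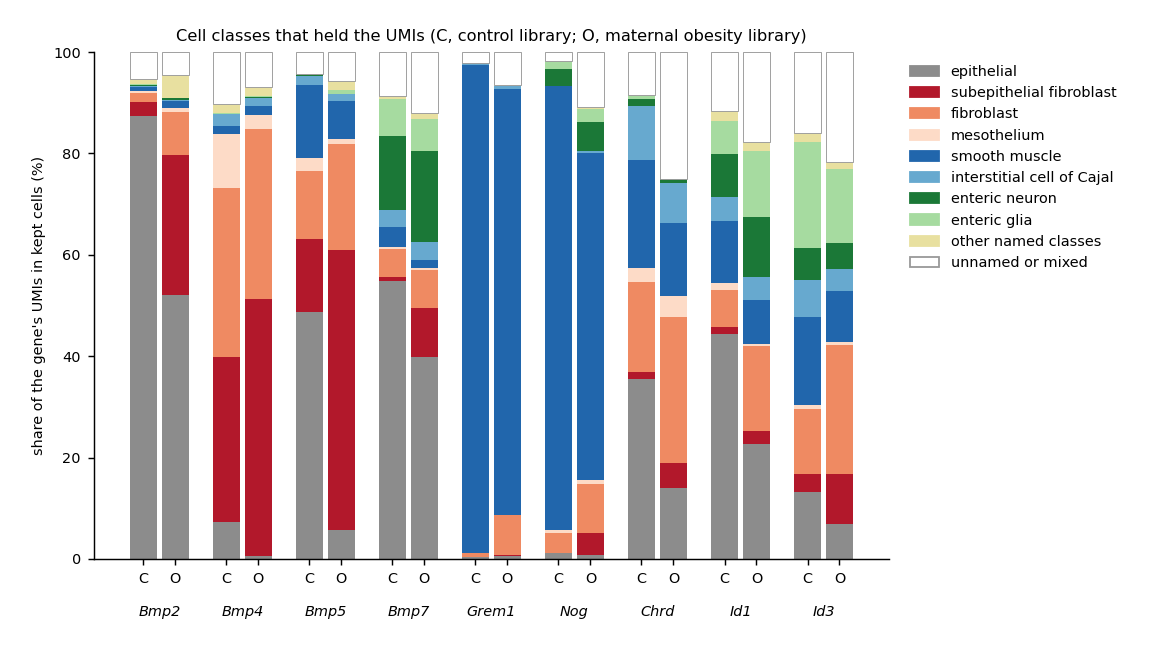
Share of each gene's UMIs in kept cells (vertical axis, %) that lay in each cell class, for the control (C) and maternal obesity (O) library of each gene. Smooth muscle-like cells fill 96.2% and 83.9% of the Grem1 bars, epithelial-like cells 87.3% and 52.0% of the Bmp2 bars, and the 2 fibroblast classes most of the Bmp4 bars.

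In epithelial-like cells Bmp2 was lower in the maternal obesity library. It was 63.3 CPM (3360 UMIs; 61.1 to 65.4) in the control and 28.6 CPM (1116 UMIs; 26.9 to 30.3) in the maternal obesity library, a ratio of 0.452 (0.422 to 0.484). After thinning, 17.2% of 2460 cells in the control and 8.92% of 1255 in the other library had a Bmp2 UMI, against 1.30% and 3.53% in T or innate lymphoid-like cells and 0 of 190 and 0.404% in erythroid-like cells. Without thinning, which left out 206 and 76 epithelial-like cells, the shares were 48.2% and 35.6%. The epithelium differed in make-up between the libraries, so its sub-clusters, again made without BMP genes, were compared one by one. All 9 sub-clusters that reached 30 cells in both libraries had a ratio below 1, between 0.457 and 0.92, and in 6 of them the interval lay below 1. Counting these 9 sub-clusters alike brought the log2 ratio from -1.15 to -0.73, still past 1.5-fold. Of the handling genes, immediate-early and stress genes such as Fos and Jun that respond to tissue dissociation, 1 of 17 was at least 1.5-fold higher and 7 were lower in epithelial-like cells, and their part in the Bmp2 difference was not tested.

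Within the epithelium Bmp2 ranged widely. The highest control level was 224 CPM, in a sub-cluster led by Atp12a and Fxyd4 that held 209 control but only 12 maternal obesity cells. Next came a sub-cluster led by Rbp4 and Krtap3-1, at 131 CPM in the control and 117 CPM in the maternal obesity library, and one led by Adora2b at 105 and 68.5 CPM. Goblet-like cells led by Retnlb stood at 105 and 48.1 CPM. The lowest level in both libraries was in colonocyte-like cells led by Enpep and Alpi, at 10.4 and 6.48 CPM. Over the sub-clusters with at least 30 cells of a library, the median was 40.4 CPM over 14 sub-clusters of the control and 23.2 CPM over 9 of the other library.

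**Figure D3:**
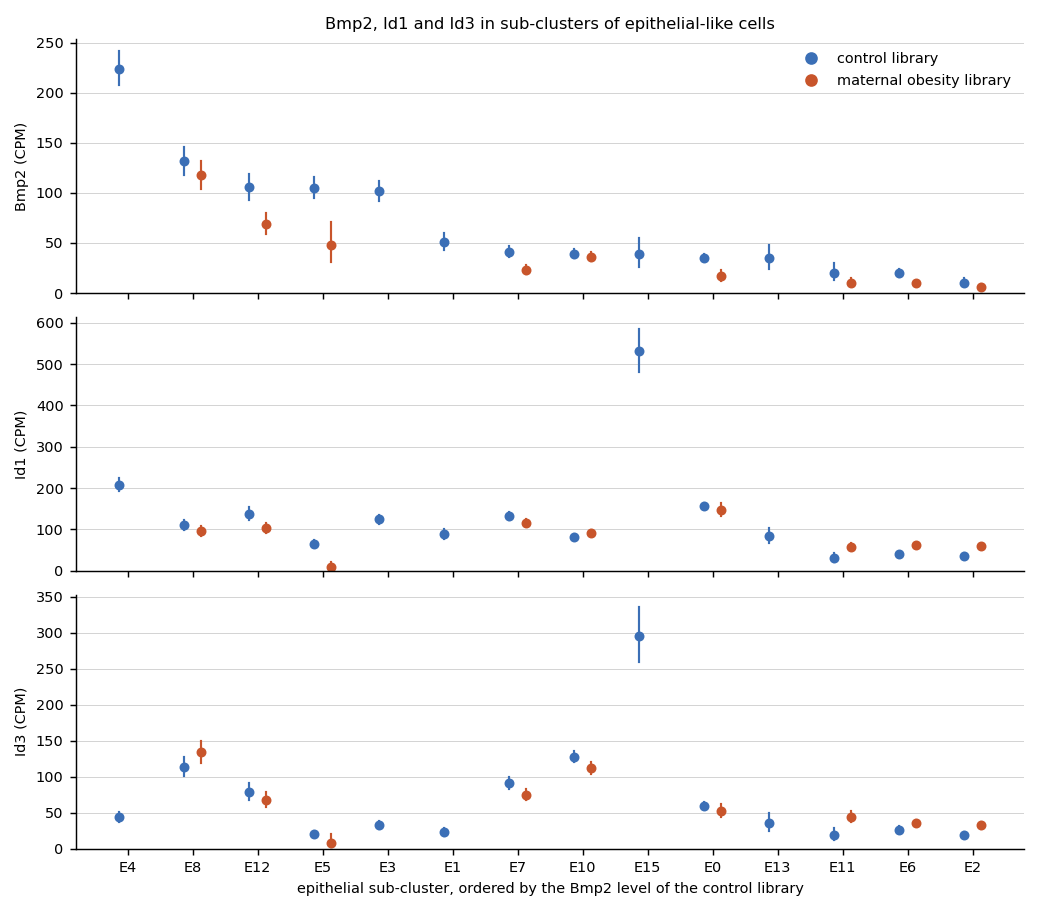
Levels of Bmp2, Id1 and Id3 (CPM, vertical axes from 0) in sub-clusters of epithelial-like cells, ordered by the control level of Bmp2 (E4 is led by Atp12a, E5 is goblet-like, E15 enteroendocrine-like and E2 colonocyte-like); points are libraries with at least 30 cells and bars are 95% Poisson intervals. The maternal obesity points of Bmp2 lie below the control points in all 9 sub-clusters that have both, while those of Id1 and Id3 lie on both sides.

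Bmp5, another mesenchymal ligand, had 187 UMIs in the control and 349 in the maternal obesity library over all kept cells. Its level in subepithelial fibroblast-like cells was 51.7 CPM (27 UMIs; 34.1 to 75.2) and 70.6 CPM (193 UMIs; 61.0 to 81.3), a ratio of 1.36 (0.909 to 2.12), within counting error. In the control library no other class passed 6.89 CPM. Epithelial-like cells held 91 UMIs (1.71 CPM) in the control and 20 UMIs (0.512 CPM) in the maternal obesity library, a ratio of 0.299 (0.174 to 0.489). When the 9 sub-clusters counted alike the log2 ratio went from -1.71 to -0.34, inside the 1.5-fold line. Only 1 of the 9 had 20 Bmp5 UMIs or more, with a ratio of 0.723 and an interval that included 1. The median maternal obesity level over the 9 was 0 CPM. The value of -0.34 thus rests mainly on counts at or near 0 and cannot tell whether the difference is held within sub-clusters. The epithelial Bmp5 UMIs lay mainly in control-rich sub-clusters led by Olfm4 (35 UMIs), by Cxcl2 and Sftpd (17 UMIs) and by Atp12a (14 UMIs).

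Bmp7, a ligand that can pair with Bmp2 or Bmp4 in heterodimers, had its own distribution. In enteric neuron-like cells it was 19.7 CPM (65 UMIs; 15.2 to 25.1) in the control and 26.1 CPM (135 UMIs; 21.9 to 30.9) in the maternal obesity library, a ratio of 1.33 (0.979 to 1.81). Of its clusters, the one led by Gal and Nsg2 stood at 22.9 and 33.0 CPM and the one led by Stmn2 and Prph at 13.4 and 18.6 CPM. Subepithelial fibroblast-like cells held 4 control UMIs (7.66 CPM) and 72 maternal obesity UMIs (26.3 CPM), a ratio of 3.44 (1.29 to 12.95) that rests on the 4. Neuron-like cells stood above these in the control and level with them in the maternal obesity library, and the intervals of both classes overlapped in each library. In epithelial-like cells Bmp7 was 4.61 CPM (245 UMIs) and 7.68 CPM (300 UMIs), a ratio of 1.67 (1.40 to 1.98), opposite to Bmp2 in the same cells. Counting the sub-clusters alike brought its log2 ratio from 0.74 to 0.39, below the 1.5-fold line. The ratio in ICC-like cells, 1.61 from 15 and 27 UMIs, had an interval of 0.829 to 3.26 that included 1.

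Grem1, the antagonist gremlin 1, lay mainly in smooth muscle-like cells, which held 96.2% of its UMIs in the control and 83.9% in the maternal obesity library. The level there was 167 CPM (1785 UMIs; 159 to 175) in the control and 122 CPM (1050 UMIs; 115 to 130) in the maternal obesity library, a ratio of 0.729 (0.675 to 0.788). That is beyond counting error but short of 1.5-fold. The 3 smooth muscle clusters had control levels of 171, 178 and 105 CPM and maternal obesity levels of 144, 124 and 81.8 CPM, each lower in the second library. After thinning, 25.7% of 805 and 20.1% of 607 smooth muscle-like cells had a Grem1 UMI, while none of the T or innate lymphoid-like or erythroid-like cells had one. Without thinning the smooth muscle shares were 46.7% and 38.3%. The classes with the most Bmp4 had almost no Grem1: subepithelial fibroblast-like cells held 1 and 3 UMIs and mesothelium-like cells 0 in both libraries, where 3 counts, the limit that a count of 0 allows, would be 3.87 and 5.23 CPM.

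In fibroblast-like cells Grem1 was 3.58 CPM (13 UMIs) in the control and 9.04 CPM (99 UMIs) in the maternal obesity library, a ratio of 2.52 (1.41 to 4.91). The cluster led by Dpt, Dcn and Lum held 1 of the control UMIs and 64 of the maternal obesity UMIs, while the other two fibroblast clusters stood at 6.54 and 7.37 CPM and at 2.54 and 2.50 CPM. The smooth muscle markers in fibroblast-like cells summed to 4806 CPM in the control and 3844 CPM in the maternal obesity library, against 75861 and 64617 CPM in smooth muscle-like cells. Their part in the Grem1 difference was not tested.

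Nog, the antagonist noggin, shared the leading class of Grem1. Smooth muscle-like cells held 155 UMIs (14.5 CPM; 12.3 to 17.0) in the control and 149 UMIs (17.3 CPM; 14.6 to 20.3) in the maternal obesity library, a ratio of 1.19 (0.945 to 1.5). These were 87.6% and 64.5% of all Nog UMIs. Nog stayed at or below 3.66 CPM in each of the other 12 classes. An unnamed cluster led by Igfbp5 and Penk held 0 control and 18 maternal obesity UMIs, the latter 7.36 CPM.

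Chrd, chordin, had 141 UMIs in kept control cells and 243 in maternal obesity cells. The highest mean level was in mesothelium-like cells, from only 4 UMIs (5.16 CPM; 1.41 to 13.2) in the control and 10 UMIs (17.4 CPM; 8.35 to 32.0) in the maternal obesity library. ICC-like cells stood at 10.6 CPM (15 UMIs) and 12.0 CPM (19 UMIs) and fibroblast-like cells at 6.89 CPM (25 UMIs) and 6.39 CPM (70 UMIs). The intervals of the 3 classes overlapped in the control library; in the maternal obesity library that of mesothelium-like cells lay just above that of fibroblast-like cells and overlapped that of ICC-like cells. Their order is thus not settled at this depth. An unnamed cluster split from the same larger cluster as the ICC-like cells and led by Edn3 and Snhg11 held 5 and 42 UMIs, 4.74 and 13.2 CPM.

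**Figure D4:**
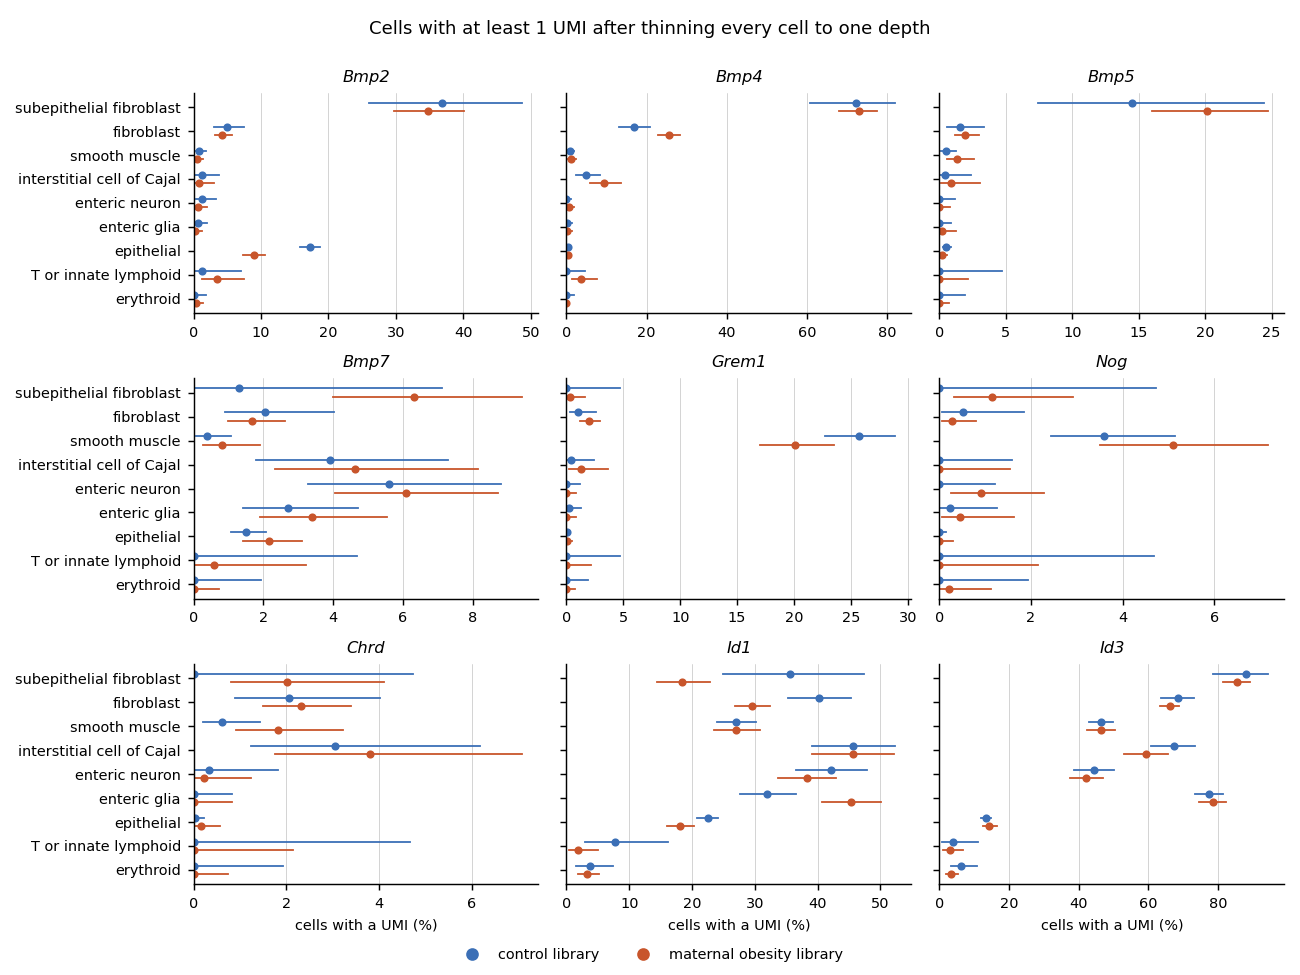
Share of cells with at least 1 UMI of each gene (horizontal axes from 0, %) after every cell was thinned to 3000 UMIs, for 7 described classes and 2 blood classes; points are libraries and bars exact 95% binomial intervals. Id3 was found in 88.2% and 85.6% of subepithelial fibroblast-like cells, and Grem1 in 25.7% and 20.1% of smooth muscle-like cells. Of the blood classes at the bottom, T or innate lymphoid-like cells show a level that free RNA may give. For Bmp4 in the maternal obesity library, 1 of these cells held 15 of their 25 UMIs before thinning. Haemoglobin took 80.1% and 86.3% of the UMIs of erythroid-like cells, which left few of the 3000 for other genes.

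Both target genes were detected in most classes. Id1 and Id3 are helix-loop-helix proteins without a DNA-binding region that block the partners they pair with. Id3 was highest in subepithelial fibroblast-like cells, the class with the most Bmp4, at 1848 CPM (965 UMIs; 1733 to 1968) in the control and 1335 CPM (3650 UMIs; 1292 to 1379) in the maternal obesity library, a ratio of 0.722 (0.673 to 0.776). ICC-like cells stood at 1322 and 1040 CPM and enteric glia-like cells at 1129 and 1075 CPM, with intervals apart in the control and overlapping in the maternal obesity library. Fibroblast-like cells were lower, at 917 and 855 CPM. Smooth muscle-like cells, the source of Grem1 and Nog, stood at 429 CPM in both libraries, and epithelial-like cells at 65.3 and 64.6 CPM. Among the 7 classes no Id3 ratio reached 1.5-fold; they lay between 0.692 in enteric neuron-like cells and 1.00 in smooth muscle-like cells.

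Id1 had another order of classes. It was highest in ICC-like cells, at 452 CPM (642 UMIs; 418 to 488) in the control and 423 CPM (670 UMIs; 391 to 456) in the maternal obesity library, a ratio of 0.936 (0.839 to 1.04). In the maternal obesity library its interval overlapped that of enteric glia-like cells. Enteric neuron-like cells were at 357 and 341 CPM, with the cluster led by Gal at 476 and 481 CPM and the cluster led by Stmn2 at 126 and 189 CPM. Fibroblast-like cells were at 280.5 and 229 CPM, smooth muscle-like cells at 158 and 152 CPM and epithelial-like cells at 115 and 87.1 CPM.

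Among the 7 classes, Id1 passed 1.5-fold in 2, in opposite directions. In enteric glia-like cells Id1 was 187 CPM (908 UMIs; 175 to 199) in the control and 391 CPM (1949 UMIs; 374 to 408) in the maternal obesity library, a ratio of 2.09 (1.93 to 2.26). Both glial clusters showed it, with ratios of 1.89 (1.68 to 2.13) and 2.27 (2.04 to 2.53), and after thinning 32.0% and 45.4% of 441 cells in each library had a UMI (58.0% and 63.8% without thinning). The handling genes were also higher in these cells, 10 of 15 measured by at least 1.5-fold, with a summed level of 1306 CPM in the control and 2448 CPM in the maternal obesity library, and their part in the result was not tested. Id3 in the same cells had a ratio of 0.953 (0.917 to 0.989).

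In subepithelial fibroblast-like cells Id1 was 347 CPM (181 UMIs; 298 to 401) in the control and 135 CPM (369 UMIs; 121 to 149) in the maternal obesity library, a ratio of 0.389 (0.325 to 0.468). One control cell held 29.3% of the control UMIs; without the top cell of each library the log2 ratio was -0.97 in place of -1.36. The share of thinned cells with a UMI was 35.5% of 76 and 18.4% of 348, and 48.3% and 33.8% without thinning. Handling genes summed to 20262 CPM in the control and 24508 CPM in the maternal obesity library, with 3 of 16 higher and 2 lower, and their part in the result was not tested. Bmp4 in the same cells had a ratio of 1.2, on the other side of 1. In mesothelium-like cells Id1 was likewise lower, at 230 CPM (178 UMIs) and 115 CPM (66 UMIs), a ratio of 0.501 (0.372 to 0.668). In some blood classes Id1 was low and also lower in the maternal obesity library. Macrophage-like cells held 30 and 19 UMIs, a ratio of 0.382 (0.203 to 0.701). T or innate lymphoid-like cells held 21 and 7 UMIs, a ratio of 0.127 (0.0458 to 0.311), and 1 control cell held 13 of the 21. In granulocyte or monocyte-like cells Id1 was 122 CPM (28 UMIs) and 175 CPM (25 UMIs), a ratio of 1.44 (0.806 to 2.56).

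**Figure D5:**
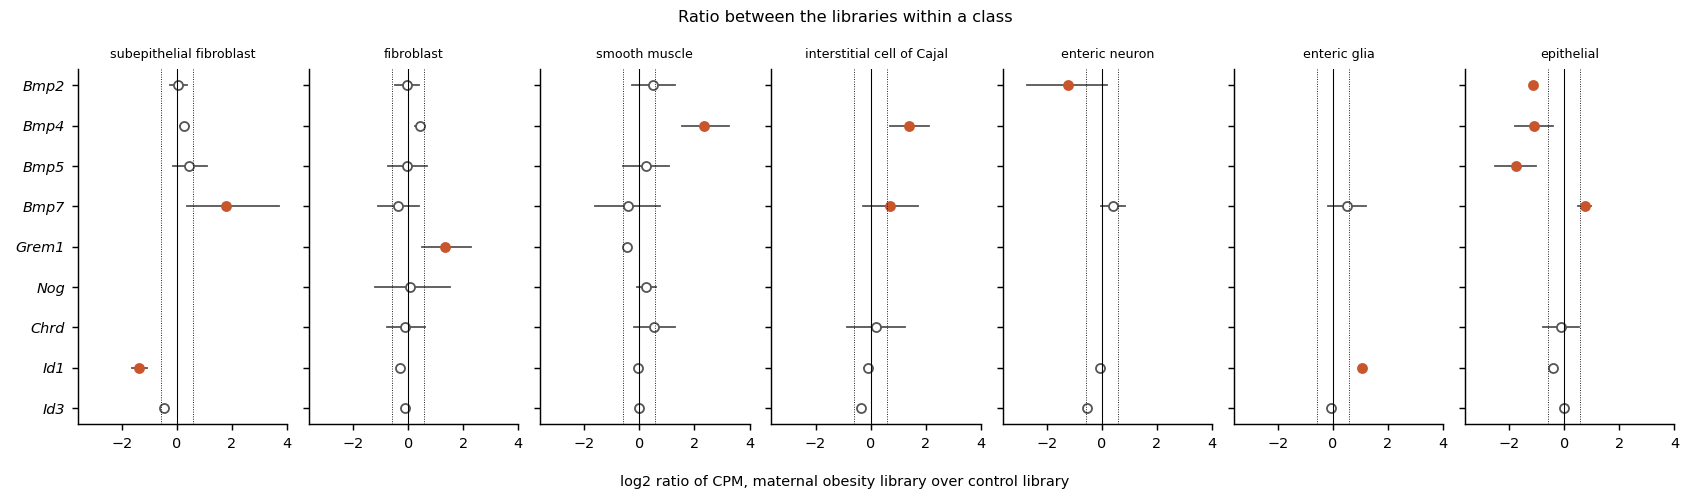
Log2 ratio of CPM, maternal obesity library over control library (horizontal axes), of each gene in 7 cell classes; bars are exact 95% intervals, dotted lines mark 1.5-fold, filled points are past it, and genes with fewer than 20 UMIs over both libraries are left out. Filled points number 12 of 43 (7 higher, or 14 with called doublets kept, and 5 lower), with Id1 on opposite sides in enteric glia-like and subepithelial fibroblast-like cells.

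Within the epithelium the target genes had an order of their own. Id1 was highest in enteroendocrine-like cells, at 531 CPM (424 UMIs) in the control, where 17 maternal obesity cells were too few to compare, and Id3 was highest in the same cells at 296 CPM (236 UMIs). Of the same 9 sub-clusters, the Id1 ratio was above 1 in 4 and below 1 in 5, between 0.148 and 1.83. The Id1 interval lay above 1 in 3 of them and below 1 in 3. For Id3 the ratios were again above 1 in 4 and below 1 in 5, between 0.389 and 2.28. The Id3 interval lay above 1 in 4 and below 1 in 2. The lowest maternal obesity levels of both genes, 9.61 and 7.69 CPM, were in goblet-like cells led by Retnlb, only 30 cells in that library. Colonocyte-like cells, the lowest in Bmp2, had Id1 at 35.2 CPM in the control and 58.8 CPM in the maternal obesity library and Id3 at 18.4 and 32.0 CPM, higher in the second library for both.

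Over 7 classes and 9 genes, 43 pairs had at least 20 UMIs over both libraries, of which 7 were at least 1.5-fold higher and 5 at least 1.5-fold lower in the maternal obesity library. With called doublets kept the higher pairs numbered 14, and at Leiden resolution 0.5 the lower pairs numbered 3. In epithelial-like cells 1 of 7 measured genes was higher (Bmp7) and 3 were lower (Bmp2, Bmp4 and Bmp5), where 11.7% of all genes tested in these cells were higher and 12.0% were lower. The Bmp4 difference there rests on 72 and 25 UMIs, 1.36 and 0.640 CPM, and its log2 ratio of -1.06 went to -0.08 when the sub-clusters counted alike. Only 2 of the 9 sub-clusters had 20 Bmp4 UMIs or more. Their ratios were 0.311 and 0.315, with both intervals below 1. The value of -0.08 rests mainly on sub-clusters with few UMIs, so it cannot tell whether the difference is held within sub-clusters. In subepithelial fibroblast-like cells 1 of 6 was higher and 1 lower, against 20.1% and 11.5% of all genes. In ICC-like cells 2 of 5 were higher and none lower, against 15.9% and 6.34%. In smooth muscle-like and in fibroblast-like cells 1 of 9 was higher and none lower, against 18.0% and 5.33% of all genes in the first and 16.6% and 5.67% in the second. In enteric glia-like cells 1 of 3 was higher and none lower, against 18.7% and 4.39%, and in enteric neuron-like cells none of 4 was higher and 1, Bmp2 with 12 and 8 UMIs and an interval of 0.151 to 1.13, was lower, against 16.7% and 5.36%. With 3 to 9 measured genes per class, the counts are given as a description.

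The rest of the pathway was read from a list of 58 further genes. Among the receptors, Bmpr1a, the type I receptor, was at least 1.5-fold higher in 6 of the 7 classes and Bmpr2, the type II receptor, in 4. In smooth muscle-like cells Bmpr1a was 13.8 CPM (147 UMIs) in the control and 27.4 CPM (236 UMIs) in the maternal obesity library, a ratio of 1.99 (1.61 to 2.46), and Bmpr2 20.04 and 33.1 CPM, a ratio of 1.65 (1.38 to 1.98). Of the SMADs that carry the signal, Smad5 was at least 1.5-fold higher in each of the 7 classes, from 8.85 to 27.9 CPM in enteric glia-like cells and from 5.29 to 9.24 CPM in epithelial-like cells. In a single class, up to 20.1% of all genes were past the same line in one direction. How many genes passed it in as many classes was not counted, so these values only describe the libraries.

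Other antagonists had classes of their own. Fst, follistatin, was highest in ICC-like cells at 279 CPM (397 UMIs) in the control and 578 CPM (915 UMIs) in the maternal obesity library, a ratio of 2.07 (1.84 to 2.33), and in smooth muscle-like cells it was 120 and 193 CPM. Sostdc1 stood at 271 and 292 CPM in enteric glia-like cells and at 48.2 and 30.4 CPM in enteric neuron-like cells. In subepithelial fibroblast-like cells, Bambi, a decoy receptor, was 113 and 72.4 CPM, Smad7, an inhibitory SMAD, was 21.1 and 45.0 CPM, and Bmp3, a ligand that opposes other BMPs, was 51.7 CPM (27 UMIs) and 120.3 CPM (329 UMIs), a ratio of 2.33 (1.57 to 3.58).

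In counts over the whole list, 15 of the 32 further genes measured in subepithelial fibroblast-like cells were at least 1.5-fold higher and 3 lower, against 20.1% and 11.5% of all genes tested there, with a median log2 ratio of 0.43 where all genes had -0.02. In smooth muscle-like cells 7 of 39 were higher, a share near the 18.0% of all genes, and none lower against 5.33%, with a median of 0.26 against 0.11. In epithelial-like cells 3 of 36 were higher and 10 lower, against 11.7% and 12.0% of all genes, and the median was -0.08 against 0.05. Of the 4 other target genes measured in subepithelial fibroblast-like cells, 3 were at least 1.5-fold higher (Id2, Id4 and Atoh8) and 0 lower. This is the class where Id1 was lower, and 20.1% and 11.5% of all genes there passed the line. Id4 was at least 1.5-fold lower in epithelial-like cells, 15.3 and 8.83 CPM, and higher in fibroblast-like cells, 9.37 and 25.0 CPM. Enteric neuron-like cells also had higher Id4 by this rule. Hey1 was lower in ICC-like cells, 77.4 and 29.7 CPM, and in enteric neuron-like cells, 164 and 81.4 CPM. By the same rule Hey1 was also lower in fibroblast-like and mesothelium-like cells and higher in endothelium-like cells.

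Mesenchymal ligands were also read cell by cell. Among thinned subepithelial fibroblast-like cells, Bmp2 was found in 45.5% of the 55 control cells with Bmp4 and in 14.3% of the 21 without, and in 39.4% of 254 and 22.3% of 94 maternal obesity cells. The intervals overlapped in the control (32.0% to 59.4% and 3.05% to 36.3%) and stood apart in the maternal obesity library (33.3% to 45.7% and 14.4% to 32.1%). Bmp5 was found in 18.2% and 4.76% of the same control cells and in 23.2% and 11.7% of the maternal obesity cells, with overlapping intervals in each library. In fibroblast-like cells Grem1 was found in 1 of 65 control and 4 of 276 maternal obesity cells with Bmp4, and in 3 of 323 and 17 of 805 cells without, with overlapping intervals. Chrd was found in 0 of 65 and 3 of 276 cells with Bmp4, and in 8 of 323 and 22 of 805 cells without, again with overlapping intervals.

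The antagonists of the smooth muscle were compared in the same way. Nog was found in 3.38% of the 207 control cells with Grem1 and in 3.68% of the 598 without, and in 8.20% of 122 and 4.33% of 485 maternal obesity cells, with overlapping intervals in each library. Id1 and Id3 were read together as well: in smooth muscle-like cells Id3 was found in 67.3% of 217 control cells with Id1 and in 38.8% of 588 without, and in 73.2% of 164 and 36.6% of 443 maternal obesity cells. The same order was seen in ICC-like cells, with 86.7% and 51.2% in the control and 78.7% and 43.4% in the maternal obesity library. The intervals stood apart in these 4 comparisons. They overlapped in subepithelial fibroblast-like cells of both libraries, where Id3 was found in 96.3% of control cells with Id1 and 83.7% of those without, and in 87.5% and 85.2% of maternal obesity cells, and in fibroblast-like cells of the control, with 73.7% and 65.1%.

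Over the 26 class sums (13 classes in each of 2 libraries), the pattern of Grem1 was most like those of Jph2, a junction protein of muscle (Pearson r = 0.97 of log2 CPM), Tnmd and Nipal4. The genes most like Bmp5 were Hgf (0.92), Ccl11 (0.91) and Adgrl3 (0.89), and Hgf, the growth factor that binds Met, was also the gene most like Bmp2 (0.85), ahead of Phlda1 and Eps8. Ltbp4, Cybrd1 and B3gnt9 came first for Bmp4, Cep126, Wnk3 and Phka1 for Bmp7, and Cys1, Slc7a10 and Wfikkn2 for Chrd. Cnn3 was among the first 3 for both Id1 (0.92) and Id3 (0.95), with Zfp532 and Rbfox2 for Id1 and Tead2 (0.96) and Plekhg2 for Id3. Among the 9 genes themselves the closest pairs were Id1 with Id3 (0.86), Bmp4 with Bmp5 (0.84), Bmp2 with Bmp5 (0.76) and Grem1 with Nog (0.74), while Bmp4 and Grem1 had 0.12. These are descriptions over 12088 genes: the sums of a class share their cells' identity across both libraries, so they are not independent points.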

How the data were processed

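Droplet libraries of dissociated fetal colon were made with 10x Genomics chemistry, per the labels' protocols. The deposited matrices hold UMI counts per gene and barcode, not normalized. Per the file headers they were written by cellranger 6.1.2, while Cell Ranger 2.1.1 stands in the submitters' processing notes; no source used here names the genome build. The tables hold 30400 gene identifiers and 103013814 UMIs in the control and 120811946 in the maternal obesity library.

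Barcodes needed 500 genes or more and no more than 20% mitochondrial UMIs, and Scrublet (in scanpy 1.11.5) removed 49 control and 153 maternal obesity doublets, 0.712% and 2.11% of the cells against the 7.12% and 7.77% expected for these numbers of barcodes, so uncalled doublets may remain. Cells of both libraries were clustered together (2000 variable genes, 30 components, 15 neighbours, Leiden resolution 1) without the 9 genes and 58 other genes of the pathway. A cluster was named from marker lists by a rule set after the clusters were seen. Counts were summed per class and library and divided by the class total. Intervals at 95% are exact (Poisson for levels, conditional binomial for ratios, Clopper-Pearson for shares) and cover counting error only. A gene counted as higher or lower past 1.5-fold with at least 20 UMIs over both libraries. With 1 library per group no test was run. To compare shares of cells, each cell was thinned to 3000 UMIs and shallower cells were left out.

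The members and lists were chosen with earlier results of these data known. All 9 members are named. Of the pathway list, genes among the first 3 of their role by level in a class, or past 1.5-fold there, could be named. For likeness, the 3 genes with the highest Pearson r of log2(CPM + 1) over 26 class sums were taken, among genes with at least 200 UMIs. The likeness result for Nog is not reported here. The counting was tested on simulated data.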

Additional observations from a re-analysis of the deposited data

Results flagged for a closer look

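Bmp4 and Id1 had log2 ratios (maternal obesity over control) of opposite sign in different cell classes, with intervals that did not include 0; the difference between the classes was not tested. For Bmp4 the log2 ratio was 1.37 in interstitial cell of Cajal-like cells, 2.32 in smooth muscle-like cells and -1.06 in epithelial-like cells. The epithelial value went to -0.08 when sub-clusters counted alike, so the opposite sign is not kept there past 1.5-fold. After thinning, 0.870% and 1.15% of smooth muscle-like cells and 0.407% and 0.319% of epithelial-like cells had a Bmp4 UMI. So did 0 of 77 and 3.53% of T or innate lymphoid-like cells and 1 of 171 and 3 of 245 macrophage-like cells. In enteric glia-like cells it was 1 of 441 in each library, and in erythroid-like cells 0 of 190 and 0 of 495. For Id1 the log2 ratio was 1.06 in enteric glia-like cells and -1.36 in subepithelial fibroblast-like cells.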

How the results depend on the processing

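Of 347 values recomputed under the alternatives, 280 stayed within the interval or margin of the reported value, 67 moved beyond it and none changed sign; of 134 that were shares, 46 moved. Among log2 ratios in the leading classes, Chrd in mesothelium-like cells went from 1.66 to 3.95 as a mean of per-cell CPM. Id1 in interstitial cell of Cajal-like cells went from -0.10 to -0.47 at a limit of 10% mitochondrial UMIs, to -0.28 with at least 1000 genes, to -0.36 at resolution 0.5 and to -0.31 after ComBat. The other alternatives named here were chosen after seeing the data. Bmp2 in epithelial-like cells went from -1.15 to -1.31 as a mean of per-cell CPM and to -0.73 with sub-clusters counted alike. Id1 in enteric glia-like cells kept values of at least 0.85, and Grem1 in fibroblast-like cells went from 1.29 to 2.33 at the 10% limit. Pairs of gene and class that were higher numbered 7, but 14 with doublets kept and 13 with a minimum of 1 UMI; those that were lower numbered 5, but 3 at resolution 0.5 and 12 with a minimum of 1 UMI. The cause was not tested. At the 10% limit Scrublet called 2 control doublets, so the caller did not work there. Resolution 0.5 gave no subepithelial fibroblast-like class and resolution 2 no mesothelium-like class, hence no values. No paired analysis was possible because each group has 1 library, which also leaves no replicate to leave out.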
